A study of Mus musculus with 21 samples.

Results

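In all, 10 genes of the feedback arm of the RAS–ERK pathway were followed by RNA-Seq in the hunger-promoting AGRP and the satiety-promoting POMC neurons: *Spred1*, *Spred2*, *Spred3*, *Spry2*, *Spry4*, *Dusp4*, *Dusp6*, *Etv1*, *Etv4* and *Etv5*. They are 10 of the 35266 genes in the count table and were chosen by symbol, because several of them had moved in opposite directions with food deprivation in the 2 neuron types. Their changes with food deprivation are therefore given as a description, without a test. Of the 10 genes, 9 entered the model across all genes, and *Etv4* had too few counts (at most 36 in any library) to enter it.

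Each library came from 1 male mouse on a C57BL/6J background and held GFP-labelled arcuate neurons collected by manual sorting. AGRP neurons came from the NPY-hrGFP strain, in which the *Npy* promoter drives the label, and POMC neurons from the Pomc-GFP strain, so neuron type and strain cannot be told apart. Fed mice (n = 5 for each neuron type) had food freely available, FD mice (n = 6 for AGRP and n = 5 for POMC neurons) had only water for 24 hr, and fed and FD mice alike were placed in individual fresh cages for that time. The AGRP mice were 46 to 55 postnatal days old and the POMC mice 51 to 56. The libraries hold 44 to 214 neurons and 9822300 to 37664000 gene counts each. *Agrp* and *Npy* summed to 12064 TPM or more in each AGRP library and to 226 TPM or less in each POMC library, and *Pomc* and *Cartpt* summed to 8809 TPM or more in each POMC library and to 227 TPM or less in each AGRP library. TPM is a gene's count divided by its exon length and scaled to the same total in each library, so it allows genes to be compared with each other. In bulk samples a lower level in every neuron and a loss of expression in some of the neurons cannot be told apart.

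Growth factor receptors and other inputs activate RAS, which sets the RAF, MEK and ERK kinases in motion one after another. Active ERK switches on genes for its own inhibitors, and their transcripts are widely used as a readout of the pathway. SPRED and Sprouty proteins act at RAS and RAF, the dual-specificity phosphatases DUSP4 and DUSP6 take the phosphates off ERK, and ETV1, ETV4 and ETV5 are the ETS transcription factors of the PEA3 group, which ERK phosphorylates and which bind DNA at a GGAA core.

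The promoters of these genes are shown first, because 3 of the members encode factors that bind DNA at a known core. RefSeq gave a start for 7 of the 10 genes (GRCm38.p6, 9 start sites). The 250 bases before the start are printed for *Spred3* and *Etv5*, the only members whose FD and fed libraries did not overlap in either neuron type, and for *Spry2*, the single member with the longer ETS motif CCGGAA in its window. Capitals mark the core GGAA on either strand (TTCC), and each run reads 5′ to 3′ in the direction of the gene, with no GENCODE exon inside.

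*Spred3*, chr7:29168648-29168897, minus strand: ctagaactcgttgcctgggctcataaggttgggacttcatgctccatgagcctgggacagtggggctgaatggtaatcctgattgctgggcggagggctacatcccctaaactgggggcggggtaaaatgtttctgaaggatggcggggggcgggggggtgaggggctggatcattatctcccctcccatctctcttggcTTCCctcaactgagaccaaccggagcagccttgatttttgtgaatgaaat

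*Etv5*, second start site, chr16:22438369-22438618, minus strand: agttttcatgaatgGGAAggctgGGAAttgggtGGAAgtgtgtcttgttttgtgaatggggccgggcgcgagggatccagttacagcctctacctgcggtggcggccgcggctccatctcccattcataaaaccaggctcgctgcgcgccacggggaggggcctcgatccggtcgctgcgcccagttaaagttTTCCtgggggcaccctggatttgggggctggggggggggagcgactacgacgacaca

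*Spry2*, chr14:105896820-105897069, minus strand: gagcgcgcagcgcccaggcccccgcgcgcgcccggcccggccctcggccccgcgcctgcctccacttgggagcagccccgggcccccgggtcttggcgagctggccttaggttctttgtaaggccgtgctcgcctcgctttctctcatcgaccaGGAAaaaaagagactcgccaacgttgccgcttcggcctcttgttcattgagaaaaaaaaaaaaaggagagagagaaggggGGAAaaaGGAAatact

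In the whole RefSeq window of 300 bases (250 before and 50 after the start) *Spred3* held 1 GGAA core, *Spry2* 5, *Etv5* 6 at the second start and 0 at the first, *Spred2* 7, *Dusp6* 6, *Spred1* 5, and *Etv1* 5 and 1 at its start sites. GGAA is so short that 96.0% of all 32851 promoters in the table hold it, with a median of 3 matches. CCGGAA was in 1 of the 9 windows, that of *Spry2*, downstream of the start, and in 14.9% of all promoters. Neither the cAMP response element TGACGTCA (1.79% of all promoters) nor the AP-1 motif TGANTCA (7.81%) was in any of the 9 windows. Both strands were searched, the cores include those inside CCGGAA, and a match is a run of letters rather than a binding site.

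The SPRED genes, whose proteins keep RAF from being activated by RAS, had the highest mean TPM of the members in fed AGRP, FD AGRP and fed POMC neurons. In FD POMC neurons *Etv1* (34.4 TPM) stood above *Spred2* and *Spred3*. *Spred3* (chromosome 7, 29158829 to 29168647, mm10) changed the most of the family. In AGRP neurons the fed libraries held 25.8, 34.1, 39.9, 49.5 and 53.1 TPM and the FD libraries 90.7 to 134 TPM (median 112), so every FD library was above every fed library. In POMC neurons the fed libraries held 37.6, 46.2, 48.0, 63.6 and 80.8 TPM and the FD libraries 4.60, 6.38, 7.42, 13.4 and 13.8 TPM, and here every FD library was below every fed library. The fitted changes were a 3.28-fold increase in AGRP neurons (log2 fold change 1.71, SE 0.26) and a 6.55-fold decrease in POMC neurons (log2 fold change −2.71, SE 0.28). The groups therefore ran in the order AGRP FD (111 ± 15.3 TPM, mean ± SD), POMC fed (55.2 ± 17.1), AGRP fed (40.5 ± 11.2) and POMC FD (9.12 ± 4.22), and of these neighbours only POMC fed and AGRP fed overlapped within their SDs.

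*Spred2* (chromosome 11, 19924375 to 20024026) had changes of the same signs and a smaller size. The AGRP libraries held 48.2, 55.2, 70.6, 82.8 and 108 TPM when fed and 103 to 185 TPM (median 136) when FD. Values of the fed and FD groups came close in TPM, where 1 fed library lay above the lowest FD library, but on normalized counts they did not overlap. The POMC libraries held 42.9, 48.1, 54.2, 91.2 and 109 TPM when fed and 16.8, 20.6, 27.4, 33.5 and 44.2 TPM when FD, which overlap at 1 library of each group. *Spred2* was 2.33-fold higher in FD AGRP neurons (log2 fold change 1.22, SE 0.26) and 2.59-fold lower in FD POMC neurons (log2 fold change −1.37, SE 0.27). The 2 fed groups were nearly equal, at 73.0 ± 23.9 TPM in AGRP and 69.0 ± 29.2 TPM in POMC neurons.

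*Spred1* (chromosome 2, 117121374 to 117182279) was the most abundant of the 3 in fed mice and moved the least. It held 104, 119, 127, 130 and 130 TPM in fed and 98.5 to 177 TPM (median 161) in FD AGRP neurons, where the lowest FD library was below every fed library. In POMC neurons it held 61.8, 81.0, 94.6, 113 and 117 TPM when fed and 76.2, 84.0, 88.9, 107 and 131 TPM when FD, and the groups lay across each other. The log2 fold change was 0.54 (SE 0.17) in AGRP and −0.04 (SE 0.18) in POMC neurons. No 2 neighbours in the order of its 4 group means were apart by more than their SDs.

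The makeup of the SPRED pool differed between fed and FD mice. *Spred3* made up 17.2 ± 4.23% of the summed TPM of the 3 genes in fed and 27.6 ± 3.51% in FD AGRP neurons, but 25.6 ± 5.13% in fed and 6.56 ± 2.38% in FD POMC neurons. The share of *Spred1* was 52.4 ± 7.40% in fed and 36.9 ± 6.74% in FD AGRP neurons, and 43.1 ± 5.19% in fed and 71.7 ± 7.18% in FD POMC neurons. These shares are built from the same values that chose the genes and were not tested. The plot of family shares shows the SPRED pool and, beside it, the ETV pool described further on.

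**Figure D1:**
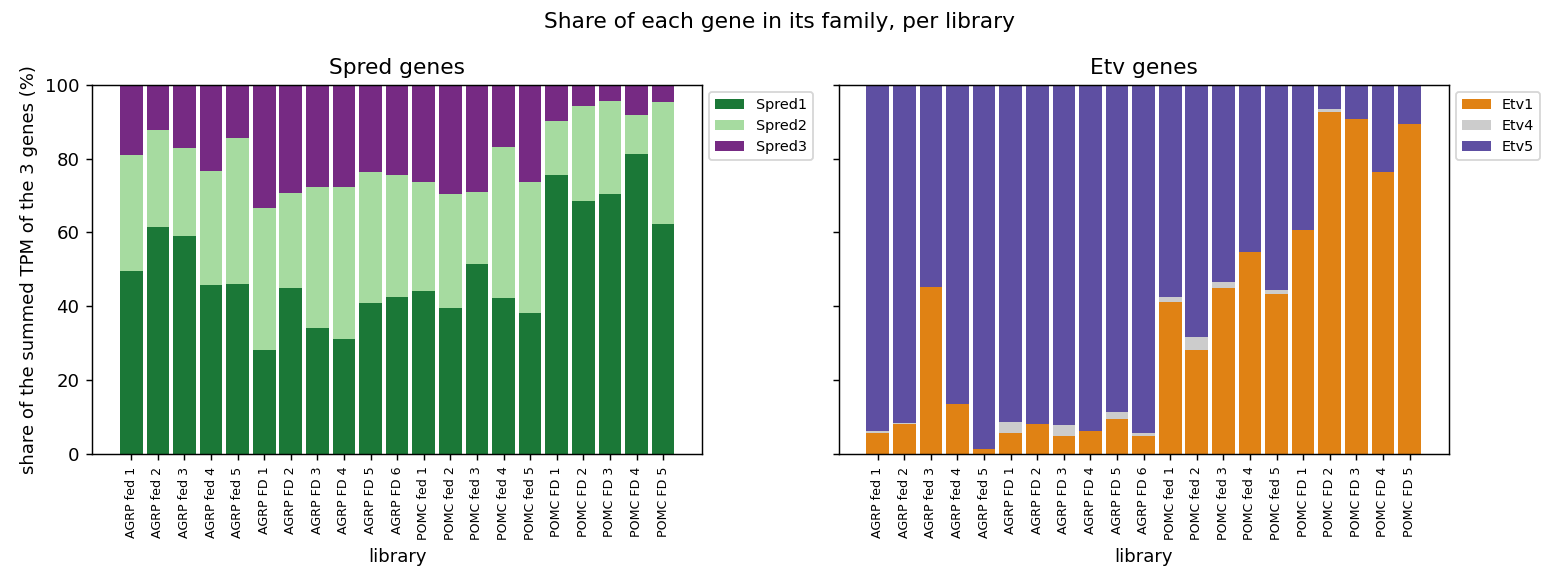
Share of each gene in the summed TPM (%) of *Spred1*, *Spred2* and *Spred3* (left) and of *Etv1*, *Etv4* and *Etv5* (right), with 1 bar for each of the 21 libraries. *Spred3* takes at most 9.79% of its family in any FD POMC library and at least 12.3% in any other library, and *Etv1* takes at least 60.7% in every FD POMC library.

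Sprouty genes encode inhibitors of receptor tyrosine kinase signalling that ERK itself induces. *Spry4* (chromosome 18, 38586268 to 38601268) had the largest fitted change of all members in AGRP neurons. Fed AGRP libraries held 0.406, 2.08, 2.13, 4.62 and 17.0 TPM and FD libraries 10.8 to 70.9 TPM (median 49.5). A single fed library, at 17.0 TPM, reached into the FD range, and it lay above the lowest FD library only. In POMC neurons *Spry4* held 9.93, 10.9, 11.9, 14.1 and 27.0 TPM when fed and 0.767, 3.94, 4.02, 4.54 and 4.72 TPM when FD, without overlap. The fit gave a 10.9-fold increase in AGRP neurons (log2 fold change 3.44, SE 0.64) and a 4.47-fold decrease in POMC neurons (log2 fold change −2.16, SE 0.62). Without the fed AGRP library that stood high (replicate 5) the AGRP value was 4.64.

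*Spry2* (chromosome 14, 105891949 to 105896819) had a change of the same sign as *Spry4* in AGRP neurons. It held 0.949, 1.88, 2.92, 5.97 and 9.56 TPM in fed and 14.7 to 36.8 TPM (median 28.1) in FD AGRP neurons, which did not overlap, a 7.64-fold difference (log2 fold change 2.93, SE 0.79). In POMC neurons the fed libraries held 9.40, 12.3, 12.9, 19.2 and 21.9 TPM. The FD libraries split widely, at 0.0680, 1.10, 1.55, 11.2 and 18.6 TPM, the last 2 of which lay inside the fed range. Those 2 libraries were the ones with 10 µl of spike-in mix, and the log2 fold change of −1.38 had an SE of 0.76. It was −2.32 without replicate 5, the highest FD library.

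**Figure D2:**
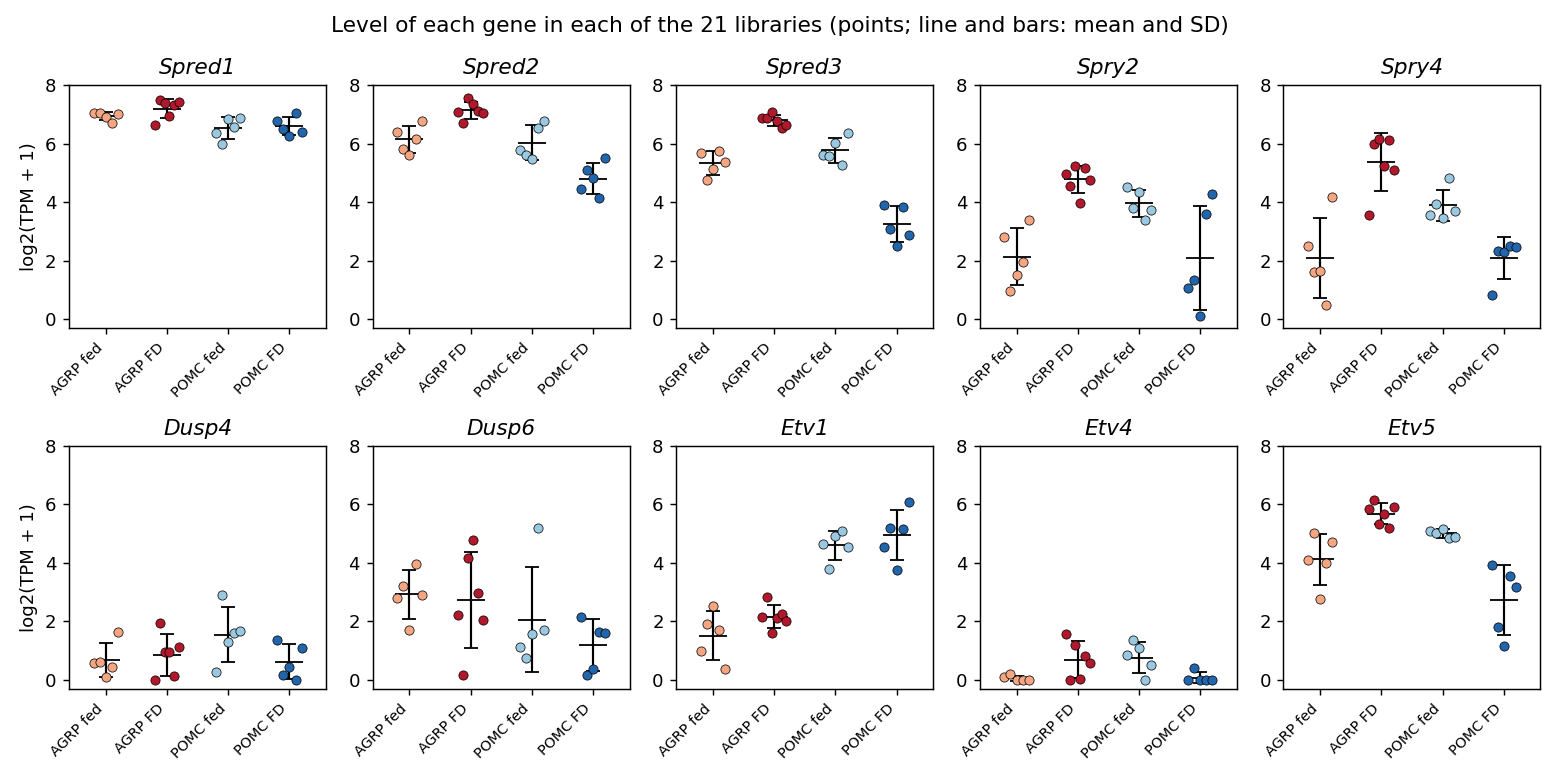
Level of the 10 genes as log2(TPM + 1) in each of the 21 libraries (points), by group, with the mean (long line) and SD (bars) of each group. *Spred3* and *Etv5* lie higher in FD than in fed AGRP neurons and lower in FD than in fed POMC neurons without overlap, *Spred1* lies at similar heights in all groups, and *Etv1* is separated by neuron type.

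The phosphatase genes were expressed at low levels and their values rested on single libraries. *Dusp6* (chromosome 10, 99263231 to 99267488), whose protein acts on ERK in the cytoplasm, held 2.25, 6.01, 6.46, 8.30 and 14.7 TPM in fed and 0.113 to 26.5 TPM (median 5.29) in FD AGRP neurons. In POMC neurons it held 0.676, 1.17, 1.97, 2.29 and 35.3 TPM when fed and 0.116, 0.303, 2.08, 2.14 and 3.46 TPM when FD. The groups overlapped in both neuron types. Without the fed POMC library at 35.3 TPM (replicate 4), the log2 fold change in POMC neurons went from −2.40 (SE 1.07) to −0.00845, and without the highest FD AGRP library (replicate 4) that in AGRP neurons went from 0.66 (SE 0.97) to −0.0989. limma-voom likewise gave *Dusp6* a negative value in AGRP neurons (−0.127).

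*Dusp4* (chromosome 8, 34807297 to 34819894), a nuclear phosphatase, was near the floor in all groups. It held 0.0790 to 2.11 TPM in fed and 0 to 2.82 TPM in FD AGRP neurons, and 0.216 to 6.40 TPM in fed and 0 to 1.60 TPM in FD POMC neurons. Its log2 fold changes, 0.78 (SE 1.26) and −2.04 (SE 1.34), were of a size near their errors. The second was −1.19 without the highest fed POMC library (replicate 2), and the first was −0.0757 on spike-in scaling.

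Among the ETS factors, *Etv5* (chromosome 16, 22381309 to 22439719) had separate FD and fed groups in both neuron types, as *Spred3* did. Fed AGRP libraries held 5.82, 14.9, 16.2, 25.0 and 31.8 TPM and FD libraries 35.4 to 69.3 TPM (median 53.4). Fed POMC libraries were the most even of all groups for this gene, at 27.6, 28.6, 31.4, 33.3 and 34.8 TPM, and the FD libraries held 1.26, 2.53, 7.99, 10.7 and 14.4 TPM. All FD libraries were higher than the fed ones in AGRP neurons and lower in POMC neurons. The differences came to 3.24-fold higher (log2 fold change 1.696, SE 0.44) and 4.64-fold lower (log2 fold change −2.21, SE 0.46).

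*Etv1* (chromosome 12, 38779380 to 38868215), from the same subfamily, differed mainly by neuron type. It held 12.9, 22.3, 23.8, 29.3 and 33.3 TPM in fed and 12.5, 22.2, 34.9, 35.6 and 67.0 TPM in FD POMC neurons, but no more than 6.10 TPM in any AGRP library. With food deprivation its log2 fold change was 0.97 (SE 0.47) in AGRP and 0.39 (SE 0.47) in POMC neurons, and the groups overlapped in each. Without the FD POMC library at 67.0 TPM (replicate 5) the POMC value was 0.000128. On spike-in scaling it was −0.820, where the median of all genes was −1.12.

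*Etv4* (chromosome 11, 101769742 to 101785371) was barely detected. Of the 5 fed AGRP libraries 3 had no count and the others 1 and 2 counts, against 0 to 24 counts (median 8.50) in FD AGRP libraries. Fed POMC libraries had 0 to 36 counts (median 13), and 4 of the 5 FD POMC libraries had none while 1 had 5. A library at 0 counts allows up to 3 counts, which is 0.0911 to 0.294 CPM in these libraries, for counting error only. The small values lay higher in FD AGRP and fed POMC neurons, but the groups overlapped and no fold change is given.

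Of the ETV pool, *Etv1* made up 42.5 ± 9.51% of the summed TPM of the 3 ETV genes in fed and 82.0 ± 13.5% in FD POMC neurons. In AGRP neurons *Etv5* made up most of it, 85.1 ± 17.5% when fed and 92.01 ± 2.01% when FD.

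Side by side, all 9 fitted members had a positive log2 fold change with food deprivation in AGRP neurons (median 1.22, against −0.02 over the 16513 genes tested) and 8 of 9 had a negative one in POMC neurons (median −2.04, against −0.02). On normalized counts, 4 members had FD values wholly above the fed ones in AGRP neurons (*Spred2*, *Spred3*, *Spry2* and *Etv5*), as did 4.08% of all genes tested, and 3 had FD values wholly below in POMC neurons (*Spred3*, *Spry4* and *Etv5*), as did 1.27%. A pattern without overlap in either neuron type, higher in AGRP and lower in POMC neurons, was shared by 23 genes (0.139%), *Spred3* and *Etv5* among them. The members were picked for this pattern, so nothing is read from these counts. The difference between the AGRP change and the POMC change was 5.60 (SE 0.89) for *Spry4*, 4.42 (SE 0.38) for *Spred3*, 4.32 (SE 1.09) for *Spry2*, 3.91 (SE 0.64) for *Etv5* and 2.59 (SE 0.37) for *Spred2*, on the log2 scale. It was 0.58 for both *Spred1* (SE 0.25) and *Etv1* (SE 0.66).

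**Figure D3:**
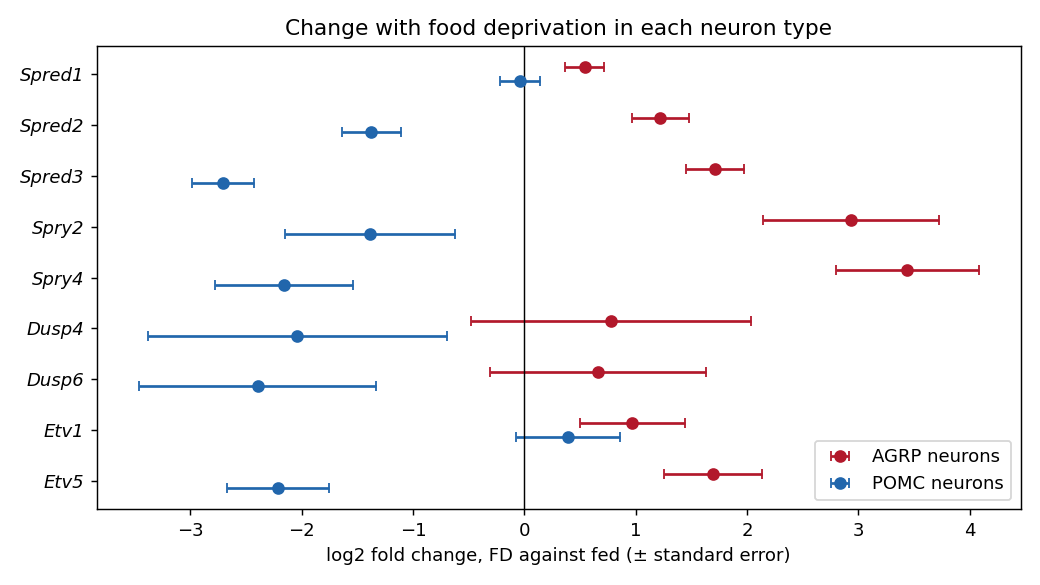
Log2 fold change of FD against fed (horizontal axis, points with standard error) for the 9 members in the model, in AGRP (red) and POMC (blue) neurons. The AGRP points all lie right of 0, between 0.54 and 3.44, and the POMC points reach from −2.71 to 0.39, with *Spred1* and *Etv1* nearest to 0.

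The changes were also taken within sets of libraries. The labels give a spike-in volume for each library, and the ages fall in 2 cohorts. The volume was 1 µl, 10 µl or one that followed the number of sorted cells, and the libraries were put in 3 sets by it. These sets are not named in the labels. FD AGRP replicate 2 had 1 µl, which is also its volume by cell number, and was put in the set spiked by cell number. In AGRP neurons *Spred2*, *Spred3*, *Spry2* and *Etv5* were higher in FD without overlap in every set and in both cohorts. This follows from their whole groups, which did not overlap, so the sets add no check on it. A set holds as few as 1 FD and 1 fed library. The P46 to P47 cohort of AGRP mice is the set spiked by cell number. In POMC neurons only the 1 µl set has both conditions (3 FD and 3 fed). There *Spred2*, *Spred3*, *Spry2*, *Spry4* and *Etv5* were lower in FD without overlap, by 1.48, 2.77, 2.61, 2.28 and 2.72 on the scale of log2(normalized CPM + 1). For *Spred3*, *Spry4* and *Etv5* the lack of overlap again follows from their whole groups. *Spred2* and *Spry2* overlapped in the whole POMC groups. The share of all genes without overlap in this small set was not counted, and the members were chosen on these values. Nothing is therefore read from the lack of overlap. The other POMC sets hold 1 condition each, so for them set and food deprivation cannot be told apart. Scaling by spike-in counts per sorted cell, in place of total counts, moved the median of all genes in POMC neurons to −1.12 and left that in AGRP neurons at −0.08. In POMC neurons the 10 µl set is FD only and the set spiked by cell number is fed only. The shift of the POMC median and the sets therefore cannot be told apart, and no change of RNA per neuron is read from it. On that scale *Spred2*, *Spred3*, *Spry2*, *Spry4* and *Etv5* were at −2.42, −3.93, −3.31, −3.27 and −3.65 in POMC neurons. The scaling acts on all genes of a library alike and the members were chosen for their changes. Their place below the median is therefore no further check.

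Transcripts of other cell types were checked beside these changes. The 22 markers of astrocytes, oligodendrocytes and their precursors, microglia, endothelial cells and tanycytes summed to 63.8 to 128 TPM in fed AGRP, 80.1 to 120 in FD AGRP, 92.5 to 133 in fed POMC and 48.8 to 106 in FD POMC libraries. Of these markers 12 were tested and 1, the astrocyte gene *Aldh1l1*, was called (higher in FD AGRP neurons). Of the 4 endothelial markers, *Cldn5* had 3 counts or fewer in every library. *Flt1*, *Pecam1* and *Tek* were detected in all groups, at means of 0.341 to 2.35 normalized CPM. Some lists had means that were higher in FD than in fed AGRP neurons and lower in FD than in fed POMC neurons, as the members did. Tanycyte markers (*Rax*, *Vim*, *Col23a1*) averaged 54.3 TPM in fed AGRP, 66.3 in FD AGRP, 78.1 in fed POMC and 38.5 in FD POMC neurons. *Vim* had log2 fold changes of 0.63 (edgeR adjusted p = 0.267) in AGRP and −1.26 (adjusted p = 0.0913) in POMC neurons, where every FD library was below every fed one, and its changes differed between the neuron types (interaction 1.89, adjusted p = 0.0142). *Col23a1* had values of the other signs, −0.20 in AGRP and 1.18 in POMC neurons (adjusted p = 0.909 and 0.525). Markers of other arcuate neurons (*Kiss1*, *Th*, *Slc6a3*, *Ghrh*) averaged 5.58 TPM in fed AGRP, 13.4 in FD AGRP, 4.81 in fed POMC and 1.90 in FD POMC neurons, and neither *Th* nor *Slc6a3*, those tested, passed in either neuron type or in the interaction. Endothelial markers averaged 1.43, 1.78, 3.33 and 1.59 TPM in the same order. The part of such cells or neurons in the members' changes was not tested.

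The neuron types were also compared with each other. Averaged over fed and FD mice, the log2 difference of AGRP from POMC neurons was −3.33 (SE 0.35) for *Etv1*, which was 10.0-fold lower in AGRP neurons. It was 1.58 (SE 0.19) for *Spred3*, 1.21 (SE 0.18) for *Spred2*, 1.13 (SE 0.42) for *Spry4*, 1.04 (SE 0.31) for *Etv5* and 0.51 (SE 0.13) for *Spred1*. The other fitted members had values nearer to their errors, 1.29 (SE 0.71) for *Dusp6*, 0.10 (SE 0.52) for *Spry2* and −0.56 (SE 0.90) for *Dusp4*. The members were chosen by their changes from fed to FD in each neuron type. Changes of opposite sign also shift these averages, so they are given without a test.

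In fed mice alone, 1 of the 9 members was called, against 7.57% of all genes (4.24% lower in AGRP neurons). *Etv1* was 12.3-fold lower in AGRP neurons (log2 difference −3.62, SE 0.53, adjusted p = 1.15e-05), and the call was made in all 21 fits that left out 1 library. *Spred2*, *Spred3* and *Etv5* had log2 differences of −0.09 (SE 0.26), −0.63 (SE 0.26) and −0.91 (SE 0.44) between fed AGRP and POMC neurons, opposite in sign to the averages, with adjusted p values of 0.917, 0.157 and 0.258. The value of *Spred2* was positive on spike-in scaling (0.321) and without fed POMC replicate 5 (0.092). *Spry2* was lower in each fed AGRP library than in any fed POMC library (log2 difference −2.05, SE 0.78, adjusted p = 0.115), and *Etv1* was too, as were 4.55% of all genes. *Spry4*, at −1.67 (SE 0.61, adjusted p = 0.0978), was not called. Of the 21 fits without 1 library 1 called it, that without its highest fed AGRP library, replicate 5 (−2.87, adjusted p = 0.00135). The fed libraries are shared with the comparisons that chose the members, and that choice favours low fed AGRP and high fed POMC values. These tests are therefore not independent of the choice. Of the 9 members, 8 had a negative difference.

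Members were also compared with each other across the 21 libraries. Of the 36 pairs of the 9 fitted members, 15 had a Pearson r over 0.5 for log2(normalized CPM + 1), with a median of 0.384 over all pairs. The highest were *Spred3* with *Etv5* (0.883), *Spred2* with *Spred3* (0.846) and *Spry2* with *Spry4* (0.803). Once each group's mean was subtracted no pair was over 0.5, the median was 0.104 and the values ran from −0.223 to 0.461. *Spred3* and *Etv5* gave 0.461 and *Spred2* and *Spred3* −0.153. The pairs share the libraries, their depth and the 4 group means by which the members were chosen.

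**Figure D4:**
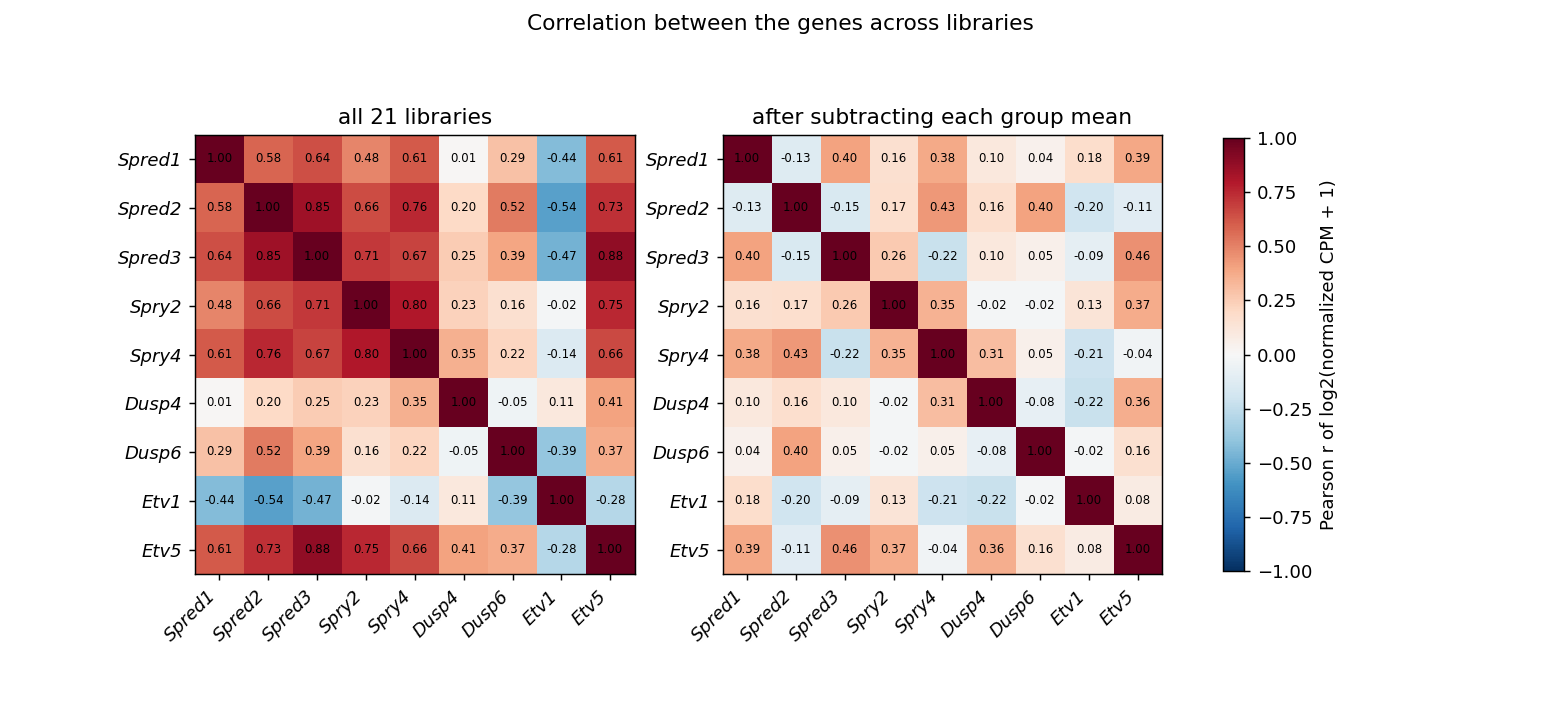
Pearson r between the 9 fitted members over 21 libraries, from log2(normalized CPM + 1), before (left) and after (right) the mean of each group is subtracted; red is positive and blue negative. The block of *Spred2*, *Spred3*, *Spry2*, *Spry4* and *Etv5* is red on the left and mostly pale on the right, where the highest value is 0.461.

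The genes most like each member over the same 21 libraries were looked up among 8205 genes whose mean exceeds 20 CPM in any group. *Vat1l* (r = 0.916) and *Trp53inp2* (0.909) were near to *Spred2*, and *Unc13a* (0.883), *Zfhx2* (0.869) and *Arap2* (0.862) to *Spred3*. *Spry4* was most like *Nfil3* (0.913), *Vgf* (0.882) and *Lpgat1* (0.880), and *Etv5* most like *Pfn1* (0.889), *Tubb4b* (0.826) and *Fam222b* (0.825). For *Etv1* they were *Cdh13* (0.929), *Cacna2d1* (0.925) and *D330045A20Rik* (0.925), and for *Spred1* *Ptprz1* (0.856), *Fam150b* (0.855) and *Elovl6* (0.842).

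The rest of the pathway was examined in 7 lists with 110 genes, of which 97 were tested. In AGRP neurons 21 of them passed an adjusted p of 0.05 with food deprivation, 11 higher and 10 lower (21.6%, against 10.3% of all genes tested, 5.87% higher and 4.43% lower), and the median log2 fold change was 0.19. In POMC neurons 3 passed, 1 higher and 2 lower (3.09%, against 0.375%, 0.182% higher and 0.194% lower), with a median of 0.00. The change differed between the neuron types for 14 genes by the interaction term, 10 more positive in AGRP neurons and 4 less (14.4%, against 6.71%, 4.08% more positive and 2.63% less). On spike-in scaling 3, 0 and 0 genes passed, and DESeq2 called 7 in POMC neurons. Spike-in counts were uneven for the volume added, as described in the last section. The lists were chosen with earlier results of these data known, so the shares here and in each list are a description. All tests in these lists are edgeR's quasi-likelihood test, and levels are normalized CPM (CPM, on the scaled library size).

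Of 15 genes of the cascade itself, from RAS to ERK, 2 passed in AGRP neurons, against 10.3% of all genes tested. None passed in POMC neurons, against 0.375% of all genes (4 of the 15 had an unadjusted p under 0.05 there). The interaction was called for 3 of the 15, against 6.71% of all genes. The MEK gene *Map2k2* differed in its change between the neuron types (interaction 1.74, SE 0.46, adjusted p = 0.0196), though it passed in neither neuron type (adjusted p = 0.145 and 0.191). *Ksr2*, a scaffold for RAF, MEK and ERK, fell from 324 ± 20.4 to 167 ± 59.7 CPM in AGRP neurons (log2 fold change −0.96, SE 0.17, adjusted p = 0.000277) and held 291 ± 14.03 and 315 ± 41.8 CPM in POMC neurons. Its interaction of −1.07 (adjusted p = 0.00663) was 0.235 on spike-in scaling.

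Among 21 adaptors, exchange factors and GTPase activators of RAS, 1 rose and 2 fell in AGRP neurons and 1 fell in POMC neurons. *Rasgrp1*, an exchange factor for RAS, was the only gene of the lists called lower in both, from 717 ± 82.8 to 301 ± 86.3 CPM in AGRP neurons (log2 fold change −1.25, SE 0.22, adjusted p = 0.000274) and from 289 ± 81.9 to 122 ± 47.3 CPM in POMC neurons (log2 fold change −1.25, SE 0.23, adjusted p = 0.00659). *Rasgrf1*, another exchange factor, rose in AGRP neurons from 1911 ± 121 to 2550 ± 329 CPM (log2 fold change 0.42, SE 0.11, adjusted p = 0.0106). The adaptor *Shc2* fell there (−0.72, SE 0.23, adjusted p = 0.0422), a call lost in 9 of the 21 fits that left out 1 library (each fed AGRP replicate and FD replicates 1, 2, 4 and 5, adjusted p 0.0523 to 0.121), without a count filter (adjusted p = 0.0564) and with sorted cell number as a covariate (0.102). *Shc3* passed in the interaction only (3.02, SE 0.66, adjusted p = 0.00422), with 3.98 ± 2.07 and 8.85 ± 2.27 CPM in fed and FD AGRP neurons and 19.4 ± 5.47 and 5.31 ± 1.74 CPM in fed and FD POMC neurons.

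Of 18 growth factor receptors 14 were tested, 1 rose and 1 fell in AGRP neurons, and none passed in POMC neurons (2 had an unadjusted p under 0.05). *Ntrk2*, the receptor for BDNF, rose from 543 ± 31.3 to 910 ± 206 CPM in AGRP neurons (log2 fold change 0.74, SE 0.16, adjusted p = 0.00196) and held 493.5 ± 107.5 and 453 ± 81.3 CPM in POMC neurons, with an interaction of 0.87 (SE 0.23, adjusted p = 0.0172). *Erbb4*, a neuregulin receptor, fell in AGRP neurons (−0.56, SE 0.17, adjusted p = 0.0261), and the call was lost in 6 of the 21 fits without 1 library (fed AGRP replicates 1, 3 and 4, FD replicates 1, 2 and 4, adjusted p 0.052 to 0.0824) and in a fit of the AGRP groups alone (adjusted p = 0.0634). In POMC neurons *Erbb4* held 218 ± 25.3 CPM when fed and 156 ± 11.5 CPM when FD. Every FD library was below every fed one there, though the gene did not pass.

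Of 17 other feedback regulators and MAP kinase phosphatases 13 were tested, with 1 higher in AGRP and 1 lower in POMC neurons. *Errfi1*, which encodes a feedback inhibitor of the EGF receptor, rose from 50.8 ± 21.2 to 270 ± 53.2 CPM in AGRP neurons, a 5.31-fold change (log2 fold change 2.41, SE 0.30, adjusted p = 2e-06), and held 47.1 ± 19.2 and 44.5 ± 18.7 CPM in POMC neurons (interaction 2.49, SE 0.41, adjusted p = 0.000185). *Ptpn5*, a phosphatase that acts on ERK in neurons, fell from 167 ± 35.1 to 65.6 ± 2.96 CPM in POMC neurons, 2.55-fold (log2 fold change −1.35, SE 0.22, adjusted p = 0.00165). It held 32.8 ± 5.83 and 39.9 ± 12.4 CPM in AGRP neurons (interaction 1.63, SE 0.31, adjusted p = 0.00105).

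Among 17 other ETS factors 13 were tested, and the 2 that passed in AGRP neurons went in opposite directions. Both encode ternary complex factors, which act with serum response factor. *Elk4* rose from 46.9 ± 6.93 to 116 ± 37.1 CPM (log2 fold change 1.30, SE 0.24, adjusted p = 0.000512) and *Elk1* fell from 50.6 ± 12.2 to 18.0 ± 7.53 CPM (log2 fold change −1.49, SE 0.31, adjusted p = 0.0016). In POMC neurons *Elk4* held 36.8 ± 8.47 and 29.3 ± 7.38 CPM and *Elk1* 25.2 ± 7.38 and 45.5 ± 14.6 CPM, and neither passed. Their interactions were 1.63 (SE 0.35, adjusted p = 0.00343) and −2.34 (SE 0.45, adjusted p = 0.00118).

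The list of other transcripts that ERK signalling induces had the largest share of calls in AGRP neurons, 7 of 13 genes tested (53.8%), with 4 higher and 3 lower. The immediate early genes *Egr1* (from 216 ± 74.2 to 710 ± 198 CPM, log2 fold change 1.72, SE 0.22, adjusted p = 4.71e-06) and *Fos* (from 78.0 ± 32.9 to 200 ± 96.7 CPM, log2 fold change 1.36, SE 0.28, adjusted p = 0.0016) rose. *Fosl1*, a relative of *Fos*, rose from 2.97 ± 3.39 to 19.5 ± 10.4 CPM (log2 fold change 2.71, SE 0.80, adjusted p = 0.0255), a call lost in 5 of the 21 fits without 1 library (fed AGRP replicates 1, 3, 4 and 5 and FD replicate 4, adjusted p 0.0528 to 0.0722). The ephrin receptor gene *Epha2* was called higher too (adjusted p = 0.0176), with 1 count in all 5 fed AGRP libraries together, 349 counts in the 6 FD ones (0 to 129 each) and none in POMC neurons. Other genes of the list fell. *Phlda1* went from 41.7 ± 21.3 to 7.79 ± 7.29 CPM (log2 fold change −2.41, SE 0.55, adjusted p = 0.0037), the cyclin gene *Ccnd1* from 37.6 ± 15.9 to 12.5 ± 5.14 CPM (log2 fold change −1.59, SE 0.51, adjusted p = 0.0439) and *Epha4* from 55.4 ± 21.6 to 23.6 ± 7.83 CPM (log2 fold change −1.23, SE 0.28, adjusted p = 0.00423). The call of *Ccnd1* was lost in 9 of the 21 fits (each fed AGRP replicate and FD replicates 1, 2, 3 and 5, adjusted p 0.0519 to 0.147), and with the age cohort or the spike-in set as a block or sorted cell number as a covariate (adjusted p = 0.0546, 0.0533 and 0.0553).

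In POMC neurons none of these 13 genes passed (1 had an unadjusted p under 0.05). The interaction was called for *Egr1* (1.54, SE 0.31, adjusted p = 0.00233), *Fos* (1.60, SE 0.40, adjusted p = 0.0135) and *Nr4a1* (4.51, SE 1.11, adjusted p = 0.012), an orphan nuclear receptor gene. *Nr4a1* held 4.56 ± 2.90 and 19.0 ± 17.2 CPM in fed and FD AGRP neurons and 16.4 ± 9.22 and 3.06 ± 4.51 CPM in fed and FD POMC neurons, but it passed in neither neuron type (adjusted p = 0.0899 and 0.17).

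Of the 8 kinases downstream of ERK, 4 passed in AGRP neurons (50.0%) and 1 in POMC neurons. *Rps6ka2* (from 85.6 ± 17.3 to 162 ± 34.3 CPM, log2 fold change 0.92, SE 0.23, adjusted p = 0.00963) and *Rps6ka3* (from 27.5 ± 13.9 to 68.1 ± 41.5 CPM, 1.31, SE 0.39, adjusted p = 0.0286), which encode ribosomal S6 kinases, rose in AGRP neurons. *Rps6ka5*, which encodes the histone kinase MSK1, fell there from 71.7 ± 12.5 to 38.6 ± 16.7 CPM (log2 fold change −0.89, SE 0.26, adjusted p = 0.0231) and rose in POMC neurons from 18.8 ± 3.24 to 46.5 ± 8.82 CPM (log2 fold change 1.31, SE 0.28, adjusted p = 0.0207). It was the only list gene called in opposite directions (interaction −2.20, SE 0.38, adjusted p = 0.000322), and its direction was the reverse of that of *Spred3* and *Etv5*. *Rps6ka6* fell in AGRP neurons from 82.2 ± 25.3 to 40.4 ± 10.8 CPM (log2 fold change −1.02, SE 0.29, adjusted p = 0.0182) and held 15.7 ± 5.27 and 30.8 ± 11.5 CPM in POMC neurons (interaction −2.0, SE 0.42, adjusted p = 0.00281). The AGRP call of *Rps6ka3* was lost in 6 of the 21 fits (without fed replicate 2, 3, 4 or 5 or FD replicate 2 or 5, adjusted p 0.0562 to 0.124), that of *Rps6ka5* in 4 (fed replicate 2, 4 or 5 or FD replicate 5, 0.0552 to 0.0601) and that of *Rps6ka6* in 1 (fed replicate 4, 0.0835). The POMC call of *Rps6ka5* was lost in 3 (FD replicate 1 or 2 or fed replicate 2, 0.0501 to 0.0709).

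**Figure D5:**
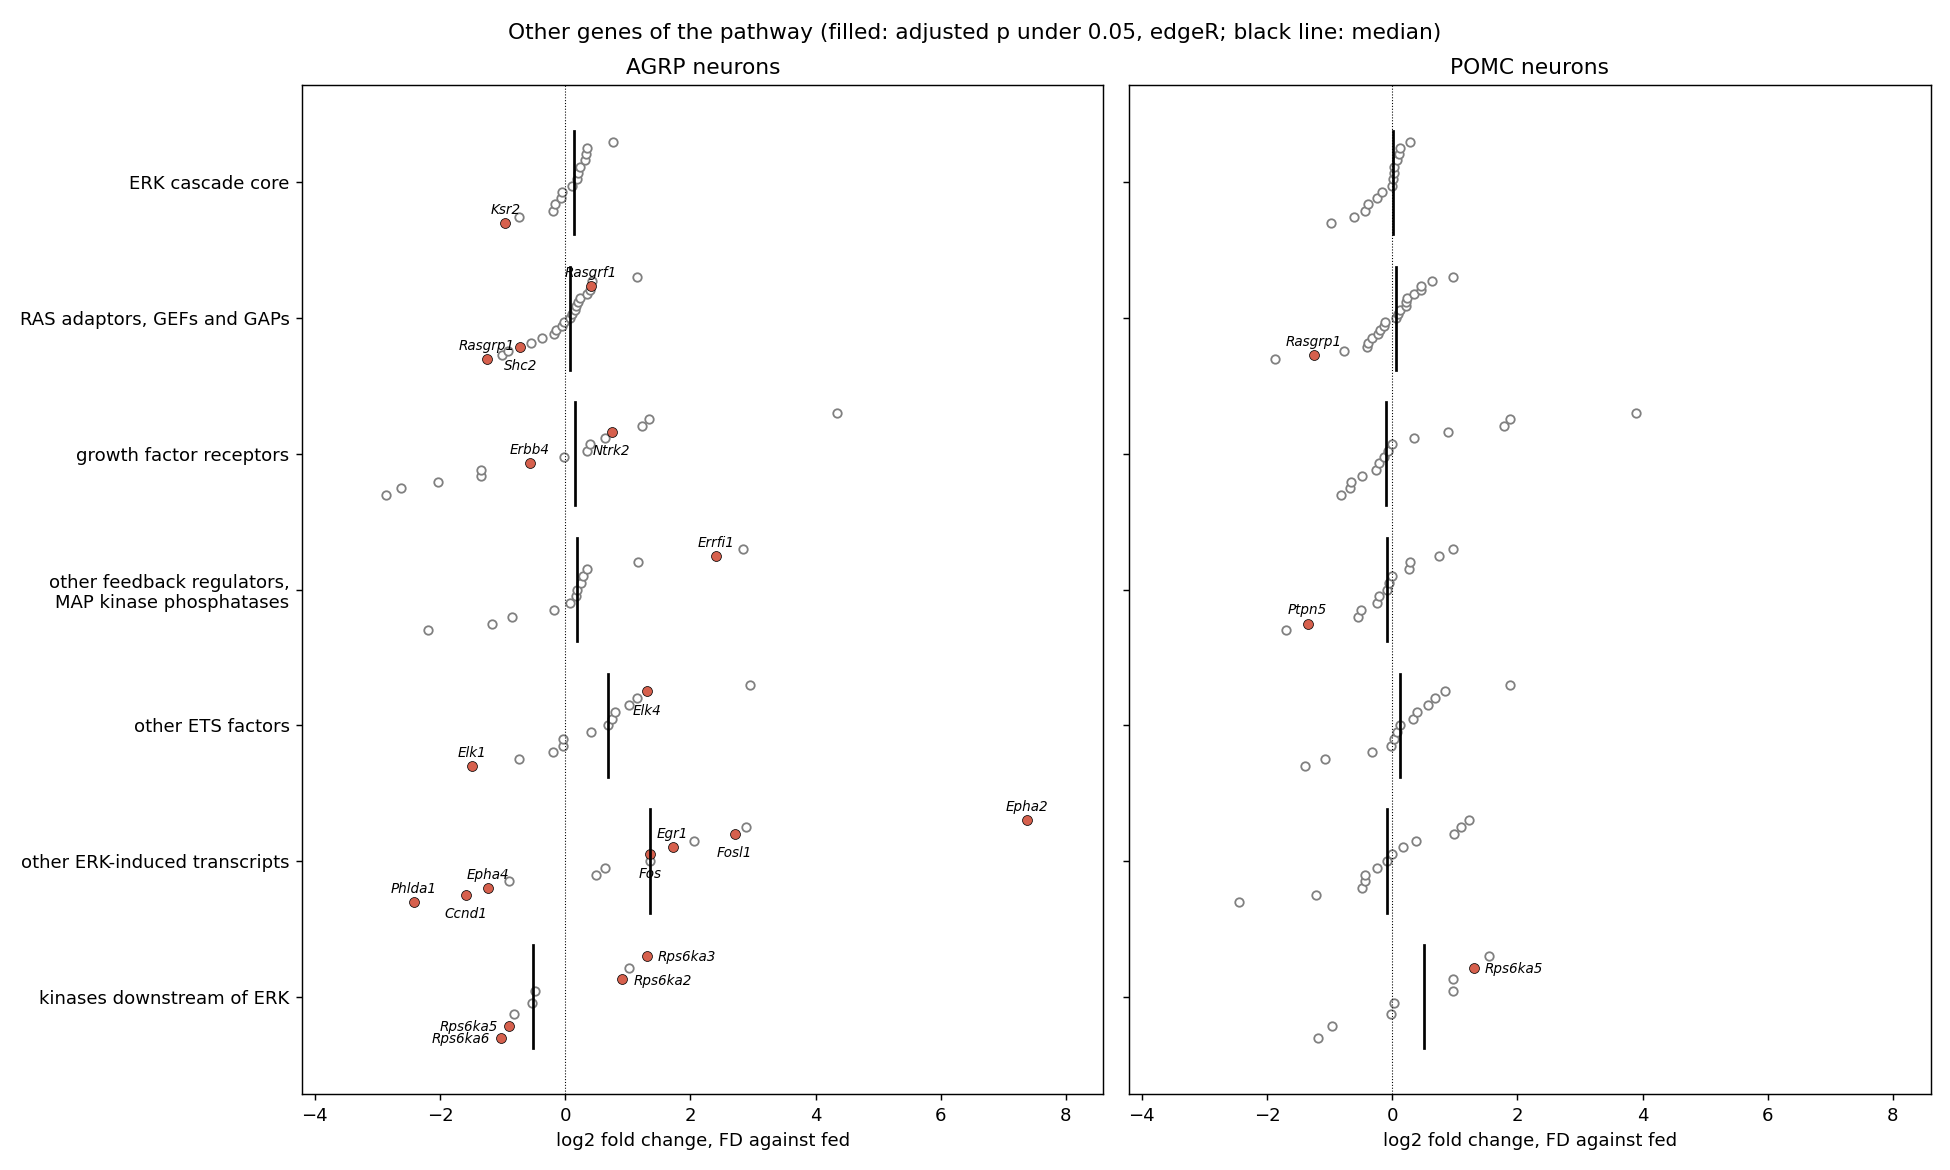
Log2 fold change of FD against fed (horizontal axis) for 96 tested genes of 7 ERK pathway lists (rows), in AGRP (left) and POMC (right) neurons; filled and named points passed an adjusted p of 0.05 by edgeR and black lines are list medians. AGRP neurons show 10 filled points right and 10 left of 0, and POMC neurons 3 in all. *Epha2* had 1 count in fed AGRP neurons, so its distance from 0 depends on the model's prior count.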

How the data were processed

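Each of the 21 libraries was amplified with the NuGEN Ovation kit, without molecular identifiers, so counting floors cover counting error only. The deposited counts per gene were made by the authors with CASAVA, cutadapt 1.7.1, Bowtie2 2.1.0, STAR 2.4.0i and HTSeq 0.6.1p1 on mm10, without regard to strand. The TPM values were computed by the authors from these counts and summed exon lengths. All columns of the tables were used, and 92 spike-in and 5 summary rows stayed out of library sizes and tests. Reads outside genes were 25.6% to 55.3% of those in genes, outside genes or ambiguous between genes, without spike-in reads.

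Genes with a CPM over 1 in at least 3 libraries (16513 of 35266) were fitted in 1 model of 4 groups with edgeR 4.0.16 (TMM, quasi-likelihood test, Benjamini-Hochberg adjustment, R 4.3.3), with limma-voom 3.58.1 and DESeq2 1.42.0 as alternatives. SEs are the log2 fold change over the square root of F. The fit was tested on simulated data. Levels are TPM, and normalized CPM where overlap, shares of genes and correlations are given (with 1 added before log2). The members and lists were chosen with earlier results of these data known. Named were all members, per list, food deprivation contrast or interaction, and direction up to 4 genes past an adjusted p of 0.05 with the largest log2 change, and for each member whose mean exceeds 20 CPM in any group the 3 genes of that level with the highest Pearson r. Mice are the replicates. Of the genes named by this rule, 1 is not reported here, though counts over all lists include it.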

Additional observations from a re-analysis of the deposited data

Results flagged for a closer look

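Within groups of 5 or 6 libraries, a single library stood far from the rest (Dixon's test) in 7 of 39 groups of the members and 10 of 97 groups of the list genes with a call. Chance flags about 1 in 20 where values are normally distributed. Low counts need not be, so no excess is read from these shares. Among the members these were *Spry4* in fed AGRP replicate 5 (22.4 normalized CPM, nearest 5.76) and FD POMC replicate 1 (1.06, nearest 5.41), *Dusp4* in fed AGRP replicate 5 (1.66), FD AGRP replicate 2 (2.82) and fed POMC replicate 2 (6.18), *Dusp6* in fed POMC replicate 4 (30.2, nearest 1.9) and *Etv4* in FD POMC replicate 2 (0.239, the others at 0). Among list genes they were *Shc2* in fed AGRP replicate 4 (68.7) and fed POMC replicate 1 (139), *Ptpn5* in fed POMC replicate 2 (229), *Phlda1* in fed AGRP replicate 4 (78.5) and FD AGRP replicate 4 (21.7), *Epha4* in fed AGRP replicate 3 (93.6), *Fos* in FD AGRP replicate 4 (388), *Fosl1* and *Nr4a1* in FD POMC replicate 4 (5.99 and 11.0) and *Rps6ka3* in fed AGRP replicate 1 (52.1).

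With the POMC change subtracted from that in AGRP neurons, the value was 4.42 for *Spred3* and 3.91 for *Etv5* on the log2 scale, with every library of each neuron type on its own side. Both were chosen for this, and the difference was not tested. Of the list genes reported here, 13 passed an adjusted p of 0.05 by edgeR's interaction term: *Ksr2* (−1.07), *Map2k2* (1.74), *Shc3* (3.02), *Ntrk2* (0.87), *Errfi1* (2.49), *Ptpn5* (1.63), *Elk1* (−2.34), *Elk4* (1.63), *Egr1* (1.54), *Fos* (1.60), *Nr4a1* (4.51), *Rps6ka5* (−2.2) and *Rps6ka6* (−2.0).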

How the results depend on the processing

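Of the list genes, 21 passed in AGRP neurons, against 3 on spike-in scaling, 11 by the study's call rule (which also asks for a log2 change above 1 and more than 20 CPM in any group), 13 in the P51 to P56 cohort alone (chosen after seeing the data) and 14 to 22 when 1 library was left out. In POMC neurons 3 passed, against 7 by DESeq2, 0 on spike-in scaling, 1 in the 1 µl set alone (chosen after seeing the data) and 2 to 4 without 1 library. The interaction was called for 14 genes, for 0 on spike-in scaling and for 14 to 17 without 1 library, and that of *Ksr2* reversed to 0.235 on spike-in scaling, which moved the median of all genes by 1.04. In POMC neurons that scaling cannot be told apart from the spike-in sets. In AGRP neurons spike-in counts were uneven for the volume added. Fed AGRP replicate 1 (1 µl) had 54433 spike-in and 19901100 gene counts, and replicate 2 (10 µl) had 2755360 and 17200400. The part of this unevenness in the calls lost on that scale was not tested. Between neuron types in fed mice 1 member was called, 2 without a count filter, 3 with sorted cell number as a covariate, and 1 to 2 without 1 library (2 without fed AGRP replicate 5). In POMC neurons 2 members had a higher mean in FD by TPM and 1 by normalized CPM. Same-numbered replicates did not deviate together (r −0.189 to 0.122). With the replicate block 19 list genes were called in AGRP and 2 in POMC neurons, 15 in the interaction, and 1 member between neuron types in fed mice. The causes of these changes were not tested. Counts near 0 limit *Dusp4* and *Etv4*.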
